A study of Mus musculus with 4 samples.

Results

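The genes described here are 48 symbols of T cells, NK cells and intraepithelial lymphocytes, read in RNA from primary colon epithelial cells of mice with chemically induced colitis. Matched by symbol to Entrez gene identifiers, 47 of them were listed among the 18872 genes of the deposited tables, and all 47 had at least 5 expected counts summed over the 4 libraries, the minimum for membership. The lowest sums were 12.08 for Prf1 and 13 for Xcl1 and Klrd1. The remaining symbol, of the homing group, matched no gene and has no value. Every mouse had received DSS (dextran sulfate sodium, an agent that damages gut epithelium and causes colitis) at 2% for 3 days. Of the 4 libraries, 2 came from wild-type mice and 2 from mice labelled EZH2-IEC-/-, named as lacking the histone methyltransferase Ezh2 in intestinal epithelial cells (knockout). Strain, age and the Cre driver are not given in the sources used here, and mice without DSS were not analysed here. Whether each library comes from its own mouse is not in the labels, so the p-values measure only library-to-library spread, some or all of which may be technical.

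T cells recognise antigen through a receptor that signals by way of the CD3 chains, the kinases Lck and Zap70 and the adaptor Lat. Intraepithelial lymphocytes are mostly CD8-bearing T cells that sit between the epithelial cells of the gut, held there by the integrin alphaE (Itgae), and carry granules with granzymes and perforin as NK cells do. They are therefore a known companion of isolated gut epithelium. The deletion is in epithelial cells, and in such bulk samples more cells of a type and more RNA per cell cannot be told apart.

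Libraries held 5037367 to 5446998 expected counts. Krt8, a keratin of simple epithelium, was at 3247.15 to 3785.32 FPKM (fragments per kilobase of transcript, scaled to sequencing depth) in the 4 libraries. This does not show that the samples held epithelium alone. The stromal gene Tagln had 947.97 and 1108.62 FPKM in the wild-type pair, beside 918.39 and 842.28 for the epithelial gene Epcam. For the knockout pair Tagln was lower, with 404.71 and 541.12 FPKM, and Epcam had 709.65 and 648.37. Whether the lymphocytes lay within the epithelium was not tested. Ezh2 had 105 and 102 counts in the wild-type pair against 86 and 83 in the knockout pair (log2 fold change -0.27, SE 0.17, adjusted p = 0.217). Reads from any exons that stay in place, or from cells other than epithelium, can be part of that total, so the genotype is not checked by it. Their part was not tested. The lymphocyte genes were a small part of each library. They took 0.0143% and 0.0142% of all counts in the wild-type libraries (720 and 745 counts) and 0.0334% and 0.0373% in the knockout libraries (1803 and 2032 counts), with 95% exact binomial intervals of 0.0132% to 0.0154% and 0.0319% to 0.039%. These intervals, like all those below, cover counting error only. The lymphocyte share was thus higher in both knockout libraries than in both wild-type libraries.

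Most lymphocyte genes were higher in the knockout. The granule genes Gzmb, Nkg7 and Gzma had the largest log2 fold changes among the tested members, on few wild-type counts. Of the 48 symbols, 26 rose and 0 fell (edgeR's quasi-likelihood test, adjusted p under 0.05 after Benjamini-Hochberg adjustment over all 13608 genes tested), 12 were tested and did not pass, and 10 had too few counts for the test or no gene. Among all tested genes 43.7% were called, 23% higher and 20.8% lower (3126 and 2824 genes; 2555 and 3465 when scaled by library totals alone). No member was lower at an unadjusted p under 0.05 either, and neither DESeq2 nor limma called one lower. Of the 38 tested members, 21 reached the count minimum in both knockout libraries but not in both wild-type libraries, so the filter kept them through the group where they were higher. Cd69 reached it in 1 library of each group. Of the other 16, which reached the minimum in both wild-type libraries, 10 rose and 0 fell, against 22.2% and 21.7% of all such genes. Over the 47 members with at least 5 summed counts, fitted with all other genes that pass this minimum, the median log2 fold change was 1.71, against -0.01 over 16563 genes, and 27 rose against a background of 18.5%. Cd96, Ifng and Ctla4 passed in that fit and not in the main test, which left them out for low counts. In 40 of the 47, both knockout libraries lay above both wild-type libraries on counts scaled by TMM-adjusted library size, an arrangement seen in 33.5% of all genes with at least 5 counts.

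**Figure D1:**
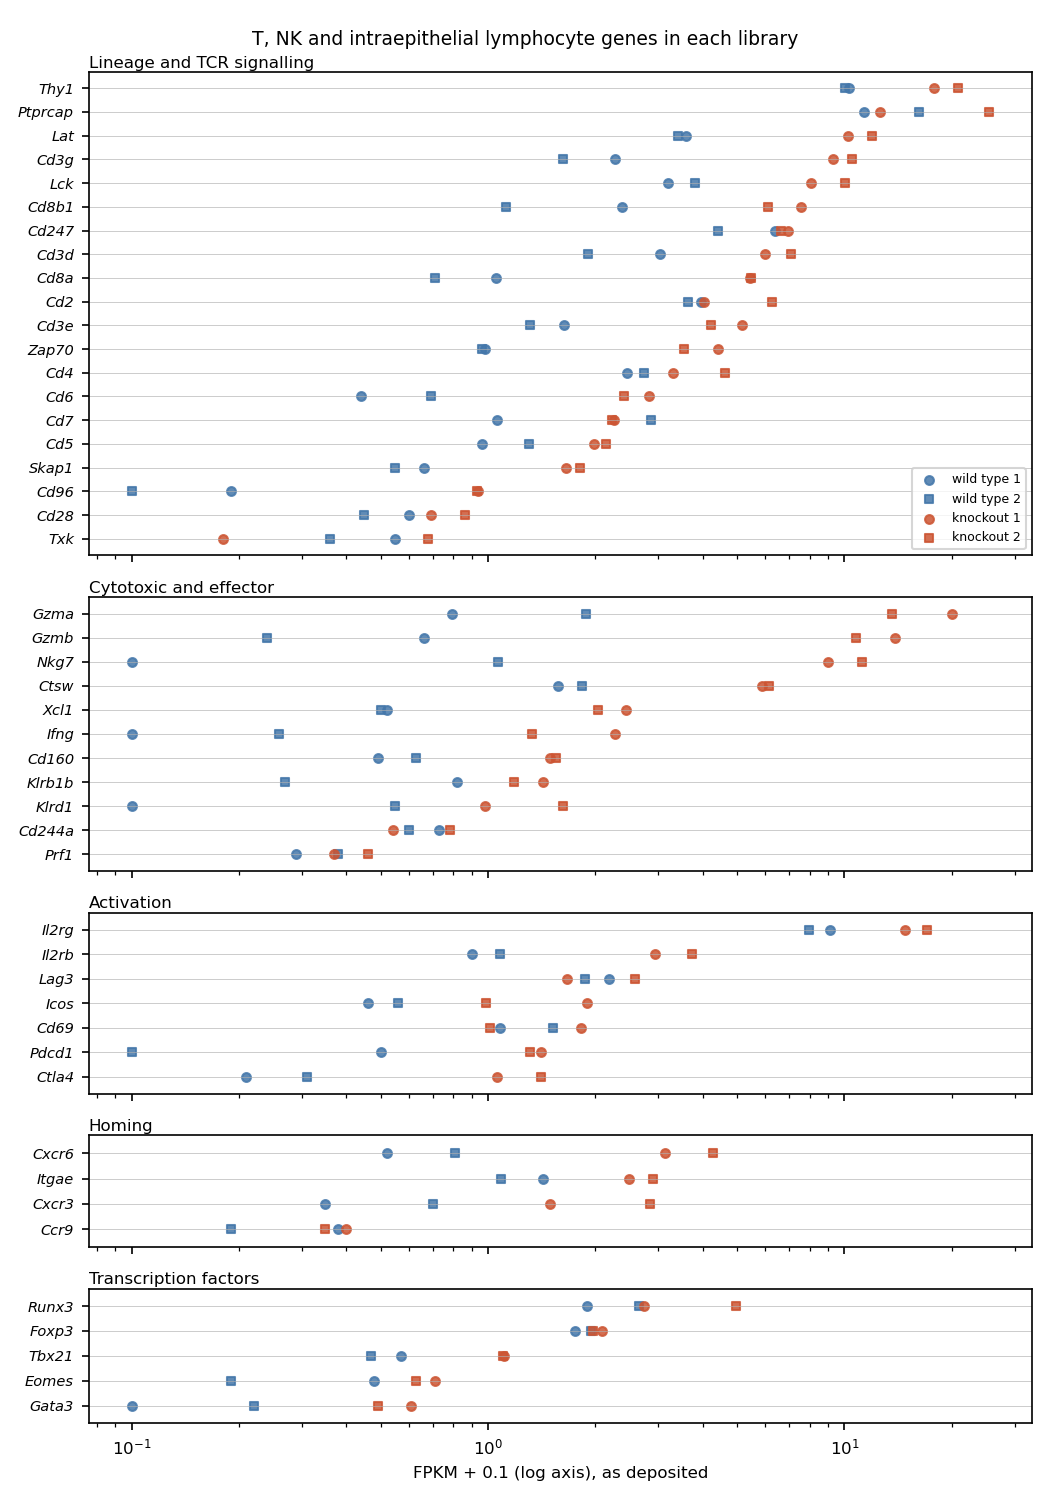
Deposited FPKM plus 0.1 (log axis) of the 47 listed members in each library, grouped by role; blue points are wild type, red points knockout, circles replicate 1 and squares replicate 2. Gzmb lies at 0.56 and 0.14 FPKM in wild type and at 13.79 and 10.67 FPKM in knockout, while the points of Cd244a, Lag3 and Cd69 overlap.

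The CD3 chains, which carry the signal of the T cell receptor, were low in wild type and higher in knockout. Cd3e had 11 and 9 counts in the wild-type pair against 39 and 32 in the knockout pair, and rose 3.57-fold (log2 fold change 1.84, SE 0.35, adjusted p = 0.00288). Cd3g went from 11 and 8 counts to 50 and 57 (log2 fold change 2.50, SE 0.32, adjusted p = 0.000326). Cd3d, with 19.42 and 12.51 against 41.8 and 50.03 expected counts, rose by 1.54 on the log2 scale (SE 0.32, adjusted p = 0.00414). In all 3 genes the groups were apart. The fourth signalling chain of the receptor, Cd247 or CD3 zeta, which NK cells also use, did not pass. It had 59 and 43 counts in the wild-type pair against 64 and 63 in the knockout pair (log2 fold change 0.34, SE 0.24, adjusted p = 0.286), and at 5.3 ± 1.41 FPKM (SD, n = 2) it was the highest of the 4 chains in wild type.

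The coreceptors differed in how far they moved. Cd8a, the alpha chain of the coreceptor of cytotoxic T cells, had 15 and 10 counts in the wild-type pair against 91 and 92 in the knockout pair. Its FPKM went from 0.78 ± 0.24 to 5.35 ± 0.0141 (SD, n = 2), with a log2 fold change of 2.88 (SE 0.28, adjusted p = 6.16e-05). Cd8b1, the beta chain that conventional CD8 T cells pair with it, rose from 1.65 ± 0.891 to 6.73 ± 1.00 FPKM (log2 fold change 2.10, SE 0.36, adjusted p = 0.0017). Over the fits that leave out 1 library, Cd8b1 ranged from 1.66 to 2.7 on the log2 scale. Cd4, the coreceptor of helper and regulatory T cells, was the more abundant in wild type, at 2.36 and 2.64 FPKM against 0.95 and 0.61 for Cd8a. In knockout the order was turned, where Cd4 had 3.21 and 4.53 FPKM but Cd8a 5.34 and 5.36. The rise of Cd4 was 1.66-fold (log2 fold change 0.73, SE 0.25, adjusted p = 0.0436) and passed narrowly. It did not pass without knockout replicate 2 (0.46, adjusted p = 0.244), without either wild-type replicate, on library totals alone or with DESeq2 or limma.

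Within each library, Cd8a made up 28.8% and 18.9% of the Cd8a and Cd4 counts in wild type (95% exact binomial intervals 17.1% to 43.1% and 9.44% to 32.0%). In the knockout libraries it made up 62.8% and 54.4% (54.3% to 70.6% and 46.6% to 62.1%). The shares were 23.9% ± 7.0 in wild type and 58.6% ± 5.94 in knockout (SD, n = 2), and an exact two-sided permutation test gave p = 0.333, the smallest that 2 libraries against 2 allow. Because both counts come from the same library, these shares do not depend on library size or scaling.

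Kinases and adaptors of T cell receptor signalling rose with the CD3 chains. Zap70, the kinase that docks on the phosphorylated chains, had 10 and 8 counts in the wild-type pair against 47 and 40 in the knockout pair (log2 fold change 2.28, SE 0.34, adjusted p = 0.000726). Lat, the membrane adaptor that Zap70 phosphorylates, went from 3.41 ± 0.134 to 11.0 ± 1.24 FPKM (log2 fold change 1.79, SE 0.25, adjusted p = 0.000508). Lck, the kinase bound to the coreceptors, went from 3.4 ± 0.431 to 8.94 ± 1.39 FPKM (log2 fold change 1.5, SE 0.22, adjusted p = 0.000675). All 3 were higher in each knockout library than in each wild-type library. Skap1, an adaptor for integrin activation, was counted at 6 and 5 against 18 and 20 (log2 fold change 1.79, SE 0.44, adjusted p = 0.0103), but lost its call when wild-type replicate 2 was left out (1.64, adjusted p = 0.0569) or with DESeq2 (1.81, adjusted p = 0.0756). Txk, a kinase of the Tec family, had 5, 3, 1 and 7 counts in wild-type replicates 1 and 2 and knockout replicates 1 and 2, too few to test.

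Other surface markers of the lineage split into some that rose and some that did not pass. Cd6, a surface receptor of mature T cells, had 5 and 9 counts in the wild-type pair against 45 and 37 in the knockout pair (log2 fold change 2.55, SE 0.39, adjusted p = 0.000763). Thy1, a marker of all mouse T cells that stromal cells carry too, rose from 10.1 ± 0.198 to 19.2 ± 2.11 FPKM (log2 fold change 1.03, SE 0.15, adjusted p = 0.000621). Cd5, which dampens receptor signals, went in FPKM from 0.86 and 1.2 to 1.88 and 2.04 without passing (log2 fold change 1.02, SE 0.38, adjusted p = 0.0575). It passed with limma (adjusted p = 0.0341 and 0.0456 at pseudocounts of 1 and 0.1), and when genes whose transcript lists differ were left out (adjusted p = 0.048). Cd2, Cd28 and Cd7, receptors for adhesion and costimulation, had log2 fold changes of 0.55, 0.76 and 0.29 (adjusted p = 0.218, 0.18 and 0.697). Ptprcap, which binds the phosphatase CD45, was the most abundant member in wild type at 11.22 and 16.07 FPKM, and the knockout libraries at 12.46 and 25.35 FPKM overlapped with it. Its replicate 2 libraries were the higher in each group, and its log2 fold change of 0.57 (adjusted p = 0.195) became -0.03 without knockout replicate 2 and 0.98 without knockout replicate 1, where it passed (adjusted p = 0.00886). Cd96, a receptor of T and NK cells, had 1 and 0 counts in wild type and 10 and 10 in knockout, a count ratio of 20.3 (95% interval 3.25 to 842). In all, 12 of the 20 lineage and signalling genes rose and 0 fell, and their median log2 fold change was 1.53 with the 5-count minimum. Of the 18 tested, 9 reached the count minimum in both knockout but not both wild-type libraries. Of the 9 that reached it in both wild-type libraries 6 rose, where 22.2% of all such genes did.

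The granule genes Gzmb, Nkg7 and Gzma showed the largest differences among the tested members, while other granule and effector genes differed less or were scarce. Gzmb encodes granzyme B, the protease that triggers death of target cells. It had 4 and 1 expected counts in wild type and 104.91 and 81.9 in knockout, which is 0.35 ± 0.297 and 12.2 ± 2.21 FPKM (SD, n = 2), and its fitted rise was 36.2-fold (log2 fold change 5.18, SE 0.43, adjusted p = 2.65e-05). The ratio of summed counts was 38.0, with an interval of 16.0 to 118. Gzma, granzyme A, went from 3 and 8 to 92 and 63 counts (log2 fold change 3.81, SE 0.42, adjusted p = 0.000123). Nkg7, a membrane protein of cytotoxic granules, went from 0 and 4 to 38 and 48 counts (log2 fold change 4.37, SE 0.63, adjusted p = 0.000617). These sizes rest on few wild-type counts. Gzmb was at 6.43 without wild-type replicate 1 and at 4.5 without wild-type replicate 2. Over the fits that leave out 1 library, Gzma ranged from 3.31 to 4.63. Nkg7 was at 3.43 without wild-type replicate 1 and at 8.43 without wild-type replicate 2, a fit in which the wild-type library left has no count and the value is no bound. All 3 passed in each of these fits. In knockout, Gzma at 16.7 ± 4.51 FPKM came after Thy1 and Ptprcap among the members, and the values of these genes overlapped. Ctsw, the protease cathepsin W of NK and cytotoxic T cells, rose by 1.96 on the log2 scale (SE 0.34, adjusted p = 0.00159).

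Perforin was scarce in both groups. Prf1, which encodes the pore that lets granzymes into a target cell, had 2, 3.06, 3.02 and 4 expected counts in wild-type replicates 1 and 2 and knockout replicates 1 and 2, too few for the test. Its ratio of 1.42 had an interval of 0.388 to 5.68, so a difference of the size seen in Gzmb lay outside the interval and a few-fold one did not. The FPKM values were 0.19 and 0.28 against 0.27 and 0.36, and the groups overlapped on this scale. Among the counts of Prf1, Gzma and Gzmb, Prf1 made up 1.5% and 2.68% in the knockout libraries (0.31% to 4.32% and 0.736% to 6.73%). The wild-type shares rested on 9 and 12 counts and are 22.2% and 25%, with intervals reaching from 2.81% to 60%.

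The promoters of the 4 members with the largest fitted rise in the main test, among those in the RefSeq promoter table, are shown because granzymes, Nkg7 and Cd8a moved together, and that of Prf1 because it stayed low beside them. Each line gives the 250 bases before the RefSeq start, 5′ to 3′ in the gene's direction, with GRCm38.p6 coordinates of that table. Capitals mark matches on either strand to TGTGGT, the core letters bound by RUNX factors such as Runx3, or to GGTGTG, core letters of T-box factors such as Tbx21 and Eomes.
Gzmb (chr14:56262335-56262584, - strand): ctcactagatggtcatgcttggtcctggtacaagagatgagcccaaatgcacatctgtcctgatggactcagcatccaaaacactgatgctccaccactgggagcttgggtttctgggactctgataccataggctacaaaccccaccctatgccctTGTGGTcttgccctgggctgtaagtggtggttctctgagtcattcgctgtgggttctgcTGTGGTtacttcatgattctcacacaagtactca
Nkg7 (chr7:43436888-43437137, + strand): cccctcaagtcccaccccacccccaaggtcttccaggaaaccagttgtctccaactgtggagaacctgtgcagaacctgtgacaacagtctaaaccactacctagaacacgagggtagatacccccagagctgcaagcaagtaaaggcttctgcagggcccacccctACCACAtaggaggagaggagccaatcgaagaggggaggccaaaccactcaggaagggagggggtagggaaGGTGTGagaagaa
Gzma (chr13:113100982-113101231, - strand): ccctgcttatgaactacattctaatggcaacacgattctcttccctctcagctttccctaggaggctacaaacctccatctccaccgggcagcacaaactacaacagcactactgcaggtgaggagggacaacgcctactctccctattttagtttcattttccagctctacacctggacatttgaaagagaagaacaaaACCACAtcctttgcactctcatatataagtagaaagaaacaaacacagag
Cd8a (chr6:71373177-71373426, + strand): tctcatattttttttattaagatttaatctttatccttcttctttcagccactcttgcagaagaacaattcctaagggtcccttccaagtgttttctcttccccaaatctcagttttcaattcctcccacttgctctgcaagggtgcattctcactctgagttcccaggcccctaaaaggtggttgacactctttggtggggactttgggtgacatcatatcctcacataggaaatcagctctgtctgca
Prf1 (chr10:61297586-61297835, + strand): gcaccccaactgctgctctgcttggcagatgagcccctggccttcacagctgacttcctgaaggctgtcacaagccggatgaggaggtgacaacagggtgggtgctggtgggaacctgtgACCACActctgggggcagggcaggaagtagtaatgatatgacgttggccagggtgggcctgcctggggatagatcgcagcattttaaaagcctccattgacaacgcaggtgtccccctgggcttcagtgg
The Gzmb window held the RUNX letters at 2 places, 93 and 34 bases before the start, and those of Nkg7, Gzma and Prf1 at 1 place each. Cd8a held neither motif in this window, and Nkg7 held the T-box letters once. Ifng and Cd96, outside the main test for low counts, had log2 fold changes of 4.19 and 4.05 with the 5-count minimum, above those of Gzma and Cd8a. The Ifng window held neither motif and that of Cd96 held the RUNX letters once. Of the members, 31 have an entry in the table, with 39 windows. The RUNX letters were in 38.5% of these windows, from 14 genes, and in 14% of all 32851 windows of that length. The T-box letters were in 30.8% and 16.3%. The 2 motifs share letters and can overlap, as they do in Il2rg. A match does not show binding, and Prf1 had one as Gzma did.

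The remaining effector genes were scarce. Ifng, interferon gamma, had 0 and 1 counts in the wild-type pair against 14 and 8 in the knockout pair, a count ratio of 22.3 (95% interval 3.61 to 922). Xcl1, a chemokine for cross-presenting dendritic cells, had 1 and 1 counts against 6 and 5, and Klrd1, the CD94 chain of NK receptors, had 0 and 2 against 4 and 7. Each has a count ratio of 5.59 (95% interval 1.22 to 51.9). Cd160, a receptor common on intraepithelial lymphocytes, rose from 0.46 ± 0.099 to 1.42 ± 0.0424 FPKM (log2 fold change 1.70, SE 0.43, adjusted p = 0.0118), and lost its call when wild-type replicate 1 was left out (1.51, adjusted p = 0.0634) or with DESeq2 (1.72, adjusted p = 0.084). Klrb1b, an inhibitory NK receptor, did not pass (log2 fold change 1.53, SE 0.60, adjusted p = 0.0664), but did so when wild-type replicate 1 was omitted (2.83, adjusted p = 0.0129), when genes whose transcript lists differ were left out (adjusted p = 0.0426) and with the replicate block (adjusted p = 0.0157). Cd244a, the receptor 2B4 of NK cells, was counted at 12, 10, 9 and 14 and its groups overlapped (log2 fold change 0.08, adjusted p = 0.897). Of the 11 cytotoxic and effector genes, 5 rose and 0 fell, where 23% and 20.8% of all tested genes did. All of the 7 tested but Cd244a, 6 genes, reached the count minimum in both knockout but not both wild-type libraries. The 5 that rose were all among these 6. Cd244a, the 1 that reached it in both wild-type libraries, did not pass. The median log2 fold change of the 11 with the 5-count minimum was 2.35.

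**Figure D2:**
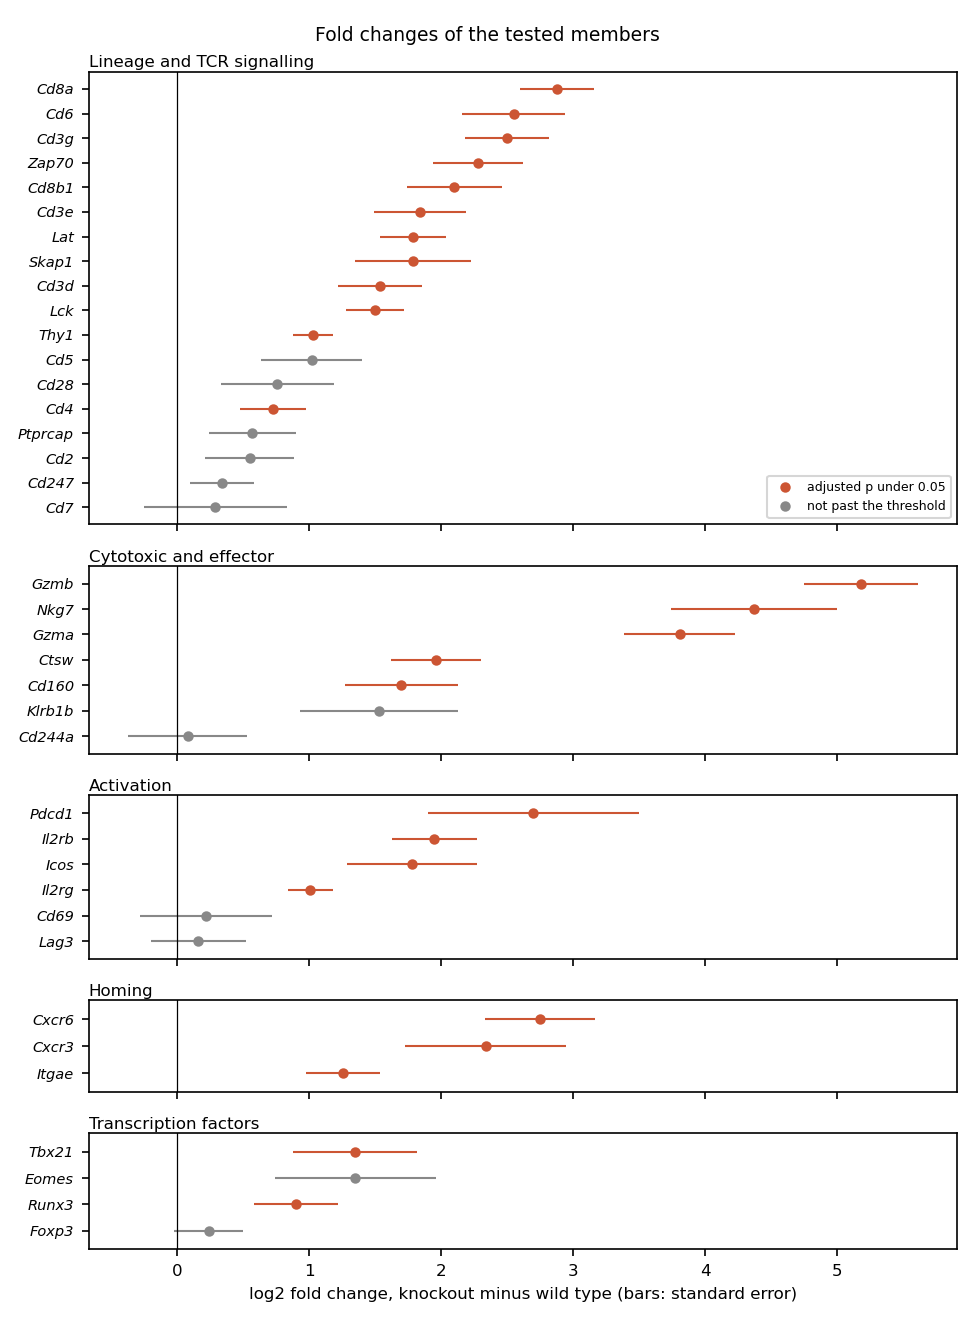
Log2 fold changes, knockout relative to wild type (bars, standard error), of the 38 members tested, grouped by role; red marks an adjusted p under 0.05. Gzmb, Nkg7 and Gzma lie furthest to the right, at 5.18, 4.37 and 3.81, and no member lies below 0.

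Compared with the lineage genes, the cytotoxic and effector genes taken as a sum had a larger share in the knockout. Cytotoxic and effector genes made up 9.19% and 10.6% of the summed counts of these and the lineage genes in wild type (6.75% to 12.1% and 8.01% to 13.7%), and 26.2% and 21.6% in knockout (23.8% to 28.6% and 19.5% to 23.8%). The mean was 9.89% ± 0.997 in wild type and 23.9% ± 3.25 in knockout (SD, n = 2; exact two-sided permutation p = 0.333, the smallest possible). Without Gzmb the knockout shares were 19.8% and 16.8%, and wild type had 8.42% and 10.4%. Gzmb, Gzma and Nkg7 together held most of the 344 and 311 cytotoxic and effector counts of the knockout libraries. The share without all 3 was not calculated, so a gain is not shown for the other cytotoxic genes as a sum. Measured against the CD3 chains alone, Gzma and Gzmb rose from 14.6% and 23.1% of the granzyme and Cd3e, Cd3d and Cd3g counts to 60.1% and 51.1%. Activation genes did not gain on the lineage genes in this way. Their share of activation and lineage counts was 22.2% and 21.9% in wild type against 20.9% and 20.1% in knockout, with overlapping intervals (18.5% to 25.9% and 18% to 23.3%).

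**Figure D3:**
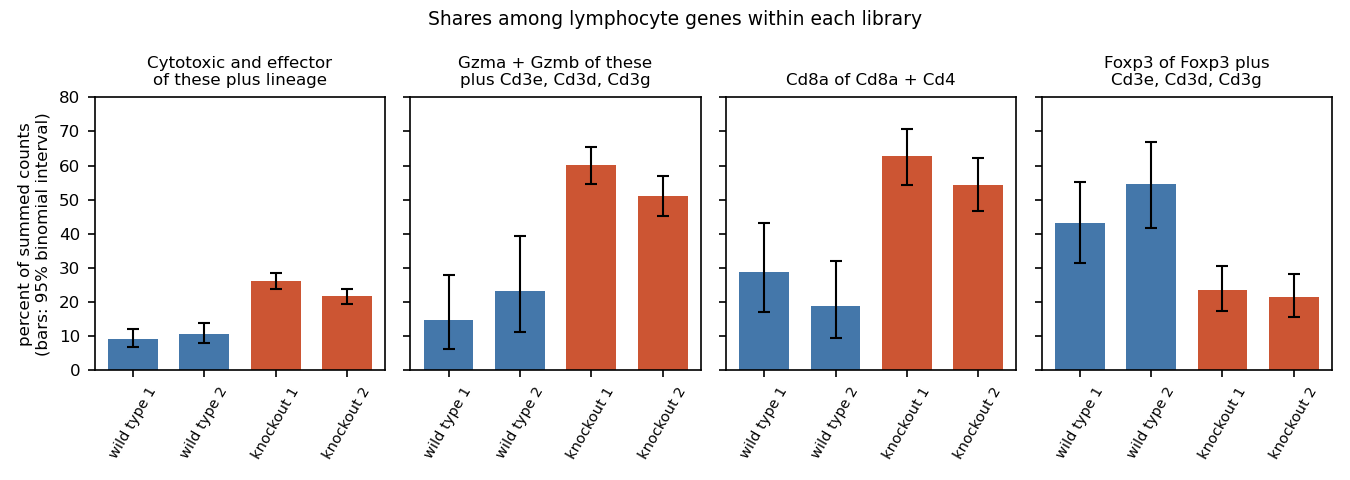
Percent of summed expected counts within each library for 4 pairs of gene groups, with 95% exact binomial intervals for counting error; blue bars are wild type, red bars knockout. The cytotoxic, granzyme and Cd8a shares are higher in both knockout libraries, and the Foxp3 share, 43.1% and 54.5% in wild type, is lower at 23.4% and 21.5%.

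Among activation genes the cytokine receptor chains rose most firmly. Il2rb, the shared beta chain of the interleukin 2 and interleukin 15 receptors, had 11 and 14 counts in the wild-type pair against 42 and 54 in the knockout pair (log2 fold change 1.95, SE 0.32, adjusted p = 0.00117). Il2rg, the common gamma chain of several cytokine receptors, rose from 8.43 ± 0.841 to 15.8 ± 1.63 FPKM (log2 fold change 1.01, SE 0.17, adjusted p = 0.00153), though its transcript list differs between the replicate 1 and replicate 2 files. Both genes reached the count minimum in wild type and their groups were apart. The inhibitory receptor Pdcd1, or PD-1, had 4 and 0 counts against 14 and 13 (log2 fold change 2.70, SE 0.80, adjusted p = 0.0226), and did not pass with wild-type replicate 2 left out (1.72, adjusted p = 0.0851) or without knockout replicate 1 (2.63, adjusted p = 0.0535). Without wild-type replicate 1 its wild-type count is 0 and the fitted value went to 6.78. The costimulator Icos had 6 and 8 counts against 32 and 16 (log2 fold change 1.78, SE 0.49, adjusted p = 0.0167), and did not pass without knockout replicate 1 (1.18, adjusted p = 0.159). DESeq2 passed neither (adjusted p = 0.0556 and 0.0507). Ctla4, an inhibitory receptor of activated and regulatory T cells, had 1 and 2 counts against 10 and 13, a count ratio of 7.79 (95% interval 2.35 to 40.5). The early activation marker Cd69 (8, 12, 15 and 8 counts) and the inhibitory receptor Lag3 (2.09, 1.77, 1.57 and 2.48 FPKM) overlapped between groups, with log2 fold changes of 0.22 and 0.16 (adjusted p = 0.743 and 0.753). So 4 of the 7 activation genes rose and 0 fell, and the median log2 fold change with the 5-count minimum was 1.79. Of the 6 tested, 2 reached the count minimum in both knockout but not both wild-type libraries. Of the 3 that reached it in both wild-type libraries 2 rose, where 22.2% of all such genes did.

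Lineage transcription factors moved less clearly. Tbx21, or T-bet, a driver of interferon gamma and cytotoxic programmes, had 6 and 5 counts in the wild-type pair against 14 and 14 in the knockout pair (log2 fold change 1.35, SE 0.47, adjusted p = 0.0437). Runx3, which sets the CD8 lineage and is also made by other cells, went from 1.80 and 2.55 to 2.64 and 4.87 FPKM (log2 fold change 0.90, SE 0.32, adjusted p = 0.0474). Both passed narrowly. With the 5-count minimum neither passed (adjusted p = 0.073 and 0.0596), and each failed with DESeq2 (adjusted p = 0.252 and 0.0685), without wild-type replicate 1 (adjusted p = 0.0979 and 0.142) and without knockout replicate 2 (adjusted p = 0.137 and 0.335). Eomes, a relative of Tbx21, had a log2 fold change of 1.35 (SE 0.61, adjusted p = 0.103), and passed when wild-type replicate 1 was omitted (2.5, adjusted p = 0.0307). Gata3, the factor of type 2 helper cells, had 0 and 2 counts against 9 and 7, a count ratio of 8.12 (95% interval 1.91 to 72.8). Foxp3, the factor of regulatory T cells, was nearly level, with 31 and 36 counts in wild type and 40 and 38 in knockout (log2 fold change 0.24, SE 0.26, adjusted p = 0.48). Relative to Cd3e, Cd3d and Cd3g it went from 43.1% and 54.5% to 23.4% and 21.5% of the summed counts. The intervals were 31.4% to 66.9% over both wild-type libraries and 15.7% to 30.5% over both knockout libraries. An exact two-sided permutation test gave p = 0.333, the smallest possible. In wild type the Foxp3 counts stood above the 11 and 9 of Cd3e. Whether they come from regulatory T cells was not tested.

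Of the 5 homing symbols 3 rose, 0 fell, and the other 2 are Ccr9, too low to test, and the unmatched symbol. Among all tested genes 23% rose. Cxcr3 and Cxcr6 reached the count minimum in both knockout but not both wild-type libraries. Ligands of the homing receptors were read from a list of partner genes. Cxcr3, the receptor for Cxcl9, Cxcl10 and Cxcl11, had 2 and 5 counts in wild type and 12 and 24 in knockout (log2 fold change 2.34, SE 0.61, adjusted p = 0.0126), and did not pass without knockout replicate 2 (1.77, adjusted p = 0.103). It was at 3.09 without wild-type replicate 2. Its ligand Cxcl9 went from 0.72 ± 0.0424 to 16.0 ± 2.50 FPKM (adjusted p = 1.04e-06) and Cxcl10 from 1.23 ± 0.0354 to 30.0 ± 0.544 FPKM (adjusted p = 1.12e-06). Cxcl11 stood lower, at 0.405 ± 0.318 and 1.5 ± 0.198 FPKM (adjusted p = 0.0261), and lost its call with DESeq2 (adjusted p = 0.113), with no filter (adjusted p = 0.057), and without wild-type replicate 1 or either knockout replicate (adjusted p = 0.055 to 0.129). Over the fits that leave out 1 library it ranged from 1.4 to 3.54 on the log2 scale. Cxcr6, found on tissue-resident T cells, had 4 and 7 counts against 31 and 43 (log2 fold change 2.75, SE 0.42, adjusted p = 0.000852), and its ligand Cxcl16 rose by 0.78 on the log2 scale (SE 0.14, adjusted p = 0.00177). For the gut homing receptor Ccr9 (6.12, 2, 7 and 6.03 expected counts) the ratio of 1.65 had an interval of 0.634 to 4.59. Its ligand Ccl25 had 2.61, 2.85, 3.46 and 2.77 FPKM and did not pass (adjusted p = 0.567).

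Itgae, the integrin chain that tethers intraepithelial lymphocytes, went from 1.16 ± 0.24 to 2.59 ± 0.29 FPKM (log2 fold change 1.26, SE 0.28, adjusted p = 0.00582). Its partner chain Itgb7 rose by 1.38 on the log2 scale (SE 0.18, adjusted p = 0.000382), from 4.19 ± 0.849 to 10.2 ± 0.113 FPKM. Cdh1, or E-cadherin, the epithelial protein to which the pair binds, fell by 0.60 on the log2 scale (SE 0.07, adjusted p = 0.000148), from 346 ± 5.18 to 213 ± 3.94 FPKM. The receptor genes and the ligand gene of this contact thus moved in opposite directions.

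Growth and selection signals for these lymphocytes moved in both directions. Il15, the cytokine that sustains CD8 intraepithelial lymphocytes and NK cells through Il2rb and Il2rg, had 68 and 66 counts in the wild-type pair against 15 and 16 in the knockout pair. Its FPKM fell from 10.2 ± 0.537 to 2.24 ± 0.0849 (log2 fold change -2.08, SE 0.27, adjusted p = 0.000302), while both receptor chains rose. Btnl1, a butyrophilin-like protein that supports gamma delta T cells in the gut lining, had 65 and 62 counts against 13 and 16 and fell by 2.10 on the log2 scale (SE 0.28, adjusted p = 0.000375). Btnl2, another member of that family, rose from 0.835 ± 0.233 to 4.68 ± 1.24 FPKM (log2 fold change 2.58, SE 0.34, adjusted p = 0.000384). Btnl4 and Btnl6, the more abundant members in the list, did not pass (adjusted p = 0.0571 and 0.0806). They had 39.7 ± 2.54 and 49.7 ± 5.4 FPKM in wild type and 44.3 ± 1.02 and 56.3 ± 6.07 in knockout. Both Il15 and Btnl1 passed in each of the 13 alternative fits. Lgals9, or galectin 9, rose by 1.46 and Cd1d1, which presents lipids to NKT cells, by 1.75 on the log2 scale (adjusted p = 1.19e-05 and 0.000408). Tnfrsf14, the ligand of Cd160, was at 11.6 and 11.16 FPKM in wild type against 7.85 and 16.81 in knockout, where the libraries differed from each other and overlapped wild type (adjusted p = 0.629).

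Further ligands of members were read after their values were seen. H2-T3, the thymus leukaemia antigen that binds Cd8a homodimers, rose from 0.435 ± 0.0778 to 1.77 ± 0.00707 FPKM (log2 fold change 2.21, SE 0.45, adjusted p = 0.00386). Cd274, the PD-1 ligand, rose by 1.03 (SE 0.17, adjusted p = 0.00134), and Icosl, the ligand of Icos, fell by 0.92 on the log2 scale (SE 0.17, adjusted p = 0.00215). Of the 35 partner genes in the list, 14 rose and 4 fell, 11 did not pass, and 6 were not tested or not listed. Among all tested genes 23% rose and 20.8% fell, beside which 29 partner genes were tested.

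**Figure D4:**
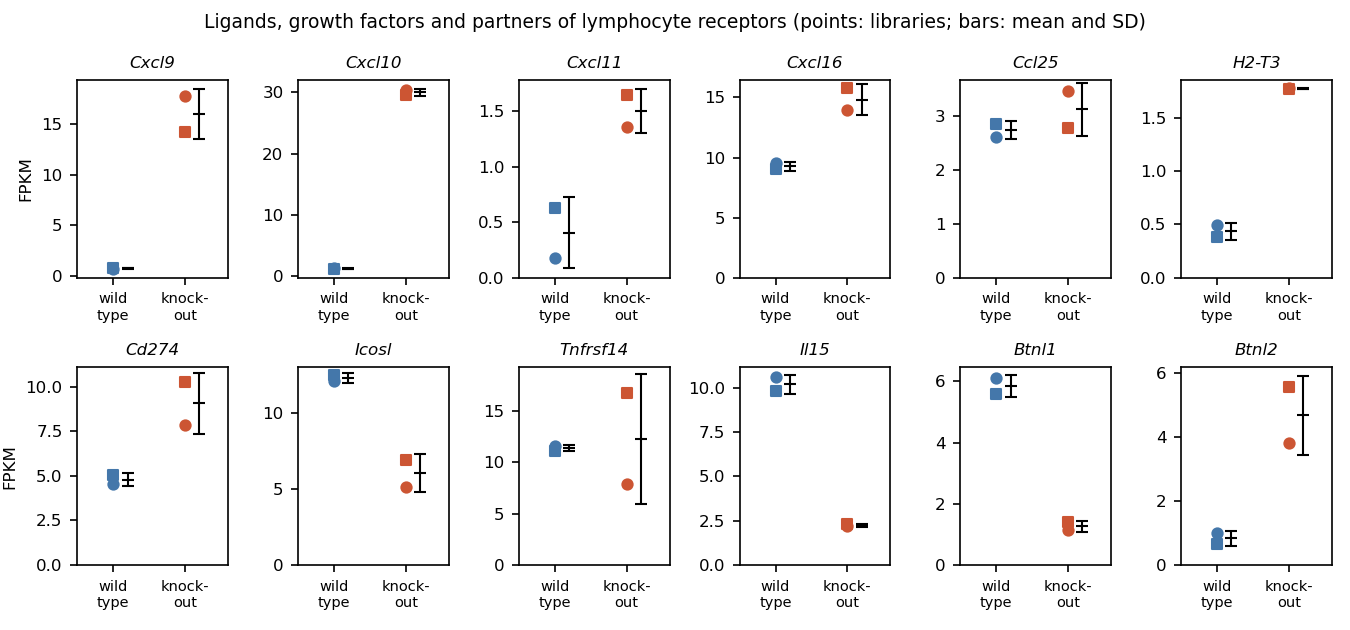
FPKM of 12 partner genes in each library (blue, wild type; red, knockout; circles replicate 1, squares replicate 2) with mean and SD beside the points, n = 2 libraries per group. Cxcl9 and Cxcl10 are at 0.69 to 1.26 FPKM in wild type and at 14.25 to 30.34 FPKM in knockout, and Il15, Btnl1 and Icosl are lower in knockout.

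Other genes of T and NK cells, from a list that shares none of the members, are given beside them. Of 49, 29 were tested, of which 8 rose and 3 fell, where 23% and 20.8% of all tested genes did. The remaining 18 tested genes did not pass. Of the 29, 7 reached the count minimum in both knockout but not both wild-type libraries. Ccl5, a chemokine of effector T and NK cells, rose from 3.15 ± 0.912 to 17.1 ± 2.49 FPKM (log2 fold change 2.52, SE 0.34, adjusted p = 0.00042). Slamf7, a receptor of cytotoxic cells, rose by 1.40 on the log2 scale (adjusted p = 0.00382). Sla2, an adaptor that dampens receptor signals, rose from 174 and 181 to 356 and 349 counts (adjusted p = 8.32e-05). Gimap4, a GTPase of lymphocytes, rose by 0.61 (adjusted p = 0.0188). It lost its call with DESeq2 (adjusted p = 0.0835) and without wild-type replicate 1 or knockout replicate 2. The other Gimap genes of the list did not pass, and Gimap8 had a log2 fold change of -0.25 (adjusted p = 0.453). The transcription factors Tox and Bcl11b fell by 1.25 and 0.64 on the log2 scale (adjusted p = 0.00365 and 0.0223). Bcl11b failed with DESeq2 (adjusted p = 0.0652), with limma, without wild-type replicate 1 (adjusted p = 0.121) and without knockout replicate 1 (adjusted p = 0.0892). Gzmc, Gzmk, Klrc1 and Themis, named after their values were seen, had no count in wild type. Against a floor of 3 counts per library they were at least 2.23-fold, 2.03-fold, 2.78-fold and 3.21-fold higher in knockout. The transcript list of Themis differs between files. Further genes of the list also had no wild-type count, with fewer knockout counts than these. Ncr1 (0, 2, 1 and 1 counts) and Klrg1 (3, 0, 3 and 2), in the order wild type then knockout, were too scarce to test.

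Markers of other white blood cells moved alongside, and their part in the lymphocyte result was not tested. Beside the counts given here, 23% of all tested genes rose and 20.8% fell. Of 18 genes shared by white blood cells, 12 rose and 0 fell (1 was lower at an unadjusted p under 0.05), with a summed level of 210.22 to 223.87 FPKM in wild type and 324.02 to 395.61 in knockout. Ptprc, or CD45, the general marker of these cells, was counted at 237 and 235 against 273 and 333, a rise of 1.3-fold (log2 fold change 0.38, SE 0.12, adjusted p = 0.0303) that did not pass under 7 alternatives, among them DESeq2 (adjusted p = 0.114), the omission of either wild-type replicate (adjusted p = 0.0618 and 0.12) and that of knockout replicate 2 (0.24, adjusted p = 0.17). Lcp1, Itgal, Rac2, Itgb2, Selplg, Cd52 and Coro1a had log2 fold changes of 1.07, 1.53, 1.30, 1.29, 1.41, 1.13 and 0.70, and each rose. From the list of 14 genes of macrophages and dendritic cells, 9 rose, 0 fell, with Lyz2 at 165.32 to 182.61 FPKM in wild type and 204.05 to 235.59 in knockout, and C1qa at 46.23 to 50.02 and 71.23 to 76.97. From the list of 10 neutrophil symbols 6 were tested, of which 4 rose and 0 fell. Among these 6, 3 reached the count minimum in both knockout but not both wild-type libraries. S100a8, a gene of neutrophils and injured epithelium, went from 1.64 and 2.63 to 98.01 and 89.55 FPKM. Cxcr2 of that list overlapped between groups and did not pass (log2 fold change 0.39, adjusted p = 0.339). Ly6g is in the replicate 2 files alone, so it gives no comparison.

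Of 11 B lineage genes, 10 were tested, of which 2 rose and 5 fell. For this list and those below, the shares of all tested genes are 23% for a rise and 20.8% for a fall. Cd79a, a chain of the B cell receptor, was at 31.12 and 34.72 FPKM in wild type against 13.37 and 23.3 in knockout (adjusted p = 0.0238), and Jchain, of antibody-secreting cells, rose from 124 ± 14.4 to 223 ± 37.2 FPKM (adjusted p = 0.000331). Cd79a did not pass without knockout replicate 1 (adjusted p = 0.061). Of 10 stromal genes 9 fell and 0 rose, with Tagln at 947.97 to 1108.62 FPKM in wild type and 404.71 to 541.12 in knockout and Acta2 at 433.14 to 473.59 and 180.38 to 237.16. Of 12 epithelial genes 8 rose and 3 fell, and their summed level was 10325.81 to 10641.12 FPKM in wild type and 11257.07 to 11656.73 in knockout. Of 8 mast cell symbols 2 were tested, of which Kit fell by 1.48 on the log2 scale (adjusted p = 5.8e-05) and the protease gene Cma1 rose by 1.31 (adjusted p = 0.0308). Cpa3, Fcer1a and Tpsb2 of that list had 2, 1 and 1 counts in all and Mcpt1 had 28.99. The values of Kit and Cma1 are therefore not read as a change in mast cells.

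**Figure D5:**
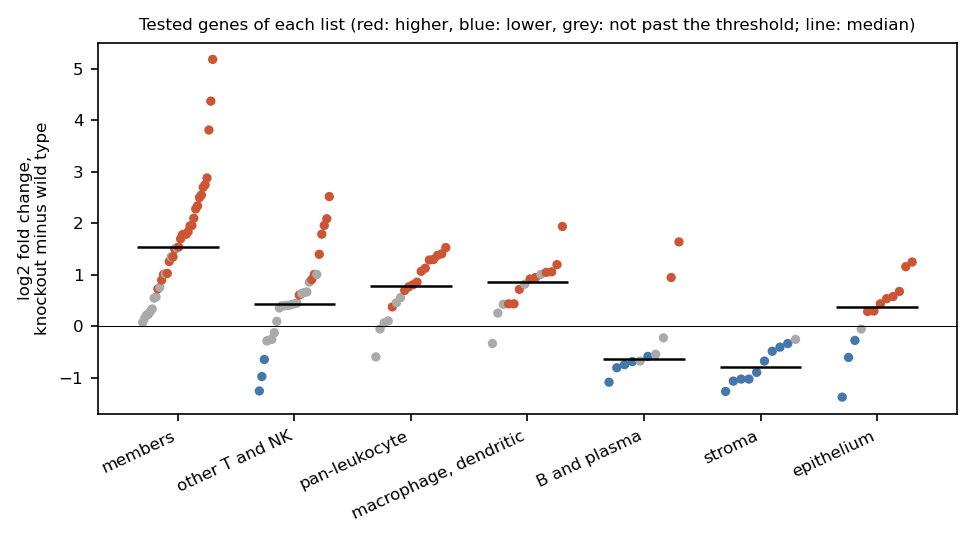
Log2 fold changes of the tested genes of the lymphocyte list and of 6 other lists; red points are called higher, blue lower, grey not past the threshold, and lines are medians. The median of the lymphocyte genes is 1.53, that of the white blood cell list 0.79 and that of the stromal list -0.78; 21 of the 38 lymphocyte genes plotted reached the count minimum in both knockout but not both wild-type libraries.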

How the data were processed

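Primary colon epithelial cells of DSS-treated mice gave 2 wild-type and 2 knockout libraries from total RNA, per the labels' protocols. The authors deposited 1 table per library with expected counts (estimated counts, 78.8% to 80.2% of them whole), FPKM values (scaled by transcript length and depth) and transcript lengths, per the file headers. Bowtie2, BWA and a human genome build stand in the submitters' processing notes without their use, although the organism is mouse. What quantified the transcripts is not stated there. RefSeq symbols (assembly GRCm38.p6) matched 18820 of 18872 identifiers (99.72%). A gene missing from a file counted as 0 there. Replicate 1 and replicate 2 files used different annotation versions, and Il2rg is the 1 member affected.

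The rounded expected counts entered edgeR's two-sided quasi-likelihood test (version 4.0.16, R 4.3.3; glmQLFit and glmQLFTest, no block) after filterByExpr, with TMM factors from 0.9647 to 1.0363, over all genes, with Benjamini-Hochberg adjustment and a threshold of 0.05. Each SE was obtained from the log2 fold change and its F statistic (size of the change over the root of F). The filter asks for at least 10 counts, scaled to library size, in 2 libraries and 15 in all. A fit of all genes with at least 5 summed counts gave the medians over all members. Members outside the test have a ratio of summed counts, scaled by library size, with a 95% exact Clopper-Pearson interval. Libraries of a group differed beyond sampling noise (chi-square per degree of freedom 4.31 and 5.22) and were kept separate. The fit was tested on simulated data. Lengths stayed unused. Alternatives were DESeq2 1.42.0, limma 3.58.1 on log2(FPKM + 1) and log2(FPKM + 0.1), other scalings and filters, a replicate block, genes with the same transcripts, and leaving out each library.

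The members and lists were chosen with earlier results of these data known. Named genes are all members, up to 8 called genes by p of the 3 companion lists (other T and NK genes, epithelial partners, pan-leukocyte genes), 9 fixed partners and the 2 most abundant genes of each list for other cells. Ezh2 is the targeted gene. H2-T3, Cd274, Icosl, Cxcl11, Itgb7 as a partner of Itgae, Gzmc, Gzmk, Klrc1 and Themis were chosen after their values were seen. So were Btnl4, Btnl6, Cxcr2, Ncr1 and Klrg1. Some genes that this rule names are not reported here.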

Additional observations from a re-analysis of the deposited data

How the results depend on the processing

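All 26 members called higher kept their direction in each of the 13 alternative fits in which they entered, and 19 to 29 members were called higher in them, the fewest with DESeq2. With a library left out the count was 22 to 24. With library totals alone, which shifts the median log2 fold change of all genes to -0.10, 23 members were called. The transcription factor count of 2 went to 0 on library totals alone, with DESeq2, with at least 5 summed counts and with no filter, to 1 with limma at either pseudocount, and to 0 to 1 with a library left out. The activation count of 4 went to 2 with DESeq2 and to 2 to 4 with a library left out. The count of other T and NK genes called higher, 8, went to 5 with DESeq2 and to 5 to 6 with a library left out. The count of white blood cell genes called lower, 0, was 1 on library totals alone, with the replicate block, after omitting genes whose transcript lists differ and with limma at either pseudocount, and 0 to 1 with a library left out. The cytotoxic shares in knockout, 26.2% and 21.6%, were 34.3% and 27.3% on summed FPKM and 19.8% and 16.8% without Gzmb. The cause of these moves was not tested.

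Members that had not passed turned sign in some fits. Cd244a was at -0.02 on library totals alone and at -0.01 and -0.03 with limma at pseudocounts of 1 and 0.1. Over the fits that leave out 1 library, values on the log2 scale ranged from -0.26 to 0.35 for Cd244a, -0.27 to 1.24 for Cd7, -0.31 to 0.61 for Cd69, -0.20 to 0.43 for Lag3, -0.03 to 0.98 for Ptprcap and -0.43 to 0.65 for Tnfrsf14. Ly6g, listed in the replicate 2 files alone, ranged from -12.12 to 11.98. Of the single-gene values under an alternative, 987 kept direction and side of the threshold, 65 no longer passed, 11 newly passed and 13 turned sign.

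Replicate numbers are shared between groups, but nothing in the labels ties same-numbered libraries. Their deviations from the group means correlated at 0.299 over 13070 genes whose transcript lists do not differ. With the replicate block 29 members were called higher and 0 lower, with all 26 kept and Cd5, Klrb1b and Ptprcap added, and 3855 genes were called higher and 3548 lower in all, against 3126 and 2824. Depth limits members with few counts, such as Prf1, with 12.08 counts in all and a ratio between 0.388 and 5.68.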
